A study of Mus musculus with 8 samples.

Results

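The smooth muscle contractile genes examined here were 9 of the 17364 genes listed for each library: Acta2, Tagln, Myl9, Mylk, Tpm1, Tpm2, Cnn1, Cnn2 and Cald1. They were taken by gene symbol as a readout of myofibroblasts, the contractile form of fibroblasts. They were chosen by symbol, and in part selected on their measured counts in the same comparison, because several were lower in Sept2C111A libraries. Their difference between the genotypes is therefore given as a description, with no p-value. Poly(A)-selected RNA was sequenced from mouse bone-marrow-derived macrophages (BMDMs), which are macrophages grown out of bone marrow cells. The 4 Sept2C111A libraries came from mice with an allele of septin 2 whose name denotes a cysteine-to-alanine substitution, and the 4 wild-type (WT) libraries from mice without it. TNF-α at 30 ng/ml was given for 24 h to the cells of both genotypes, so no untreated state was compared. Whether the 4 libraries of a genotype stem from different mice or different dishes is not in the labels, so a p-value here covers the variation among these libraries alone, and that may be technical. The labels give no strain, age or sex. Their extraction text covers aortic tissue as well as BMDMs, and all 8 libraries are labelled BMDMs.

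In smooth muscle, thin filaments of alpha-actin slide along myosin filaments. Contraction is switched on when calcium and calmodulin activate myosin light chain kinase, which phosphorylates the regulatory light chain of myosin. Tropomyosin lies along the actin filament, and caldesmon, calponin and transgelin bind the same filament. Fibroblasts that turn into myofibroblasts in wounds and fibrosis gain many of these proteins, alpha smooth muscle actin first among their markers, through serum response factor (SRF) and its cofactors of the MRTF family, and under the influence of TGF-β. Macrophages mainly use the broadly expressed relatives of these proteins, such as beta-actin and transgelin 2.

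The libraries held 19543958 to 21288493 expected counts, so the level of 3 counts, taken as the floor of detection, lay between 0.141 and 0.154 CPM, a count scaled to a common library total. All 14 macrophage markers were measured above the filter on low counts, and their summed level was 31580 to 36250 CPM in Sept2C111A libraries, against 33850 to 35100 CPM in WT libraries. Stromal markers were also present, 26 of 29 above the filter, with a summed level of 4617 to 6095 CPM in Sept2C111A libraries, against 6064 to 7670 CPM in WT libraries. Col1a1, a fibrillar collagen chain, stood at 1545 ± 168 CPM in Sept2C111A libraries and 2056 ± 257 CPM in WT libraries (SD, n = 4 each). The cultures labelled as macrophages therefore contained RNA of stromal genes beside that of macrophage genes, and the 9 contractile genes were read in this mixture. In such bulk samples, fewer cells of a type and less RNA per cell cannot be told apart. Septin2 itself, which the allele changes in sequence, had 188 ± 18.7 CPM in Sept2C111A libraries and 226 ± 7.43 CPM in WT libraries, without overlap, and this difference did not pass the threshold (edgeR adjusted p = 0.0627). Over the alternatives its adjusted p ran from 0.0165 to 0.169, and it passed with DESeq2, with Sept2C111A library 3 left out, and with both Sept2C111A libraries 2 and 3 left out. A gene-level count does not read the substitution and so does not check the genotype labels. The Sept2C111A libraries were more spread than the WT libraries, with a biological coefficient of variation of 0.138 against 0.0604. Sept2C111A libraries 2 and 3 had 14857 and 14872 genes above 0, where the other libraries had 15231 to 15359. Their normalisation factors, which scale the library totals, were the lowest of all, at 0.966 and 0.924. They also had the lowest summed stromal markers, at 4882 and 4617 CPM. Sept2C111A libraries 3 and 4 were the least alike pair within a genotype, with a mean chi-square per gene of 74.1, where WT libraries 1 and 3 were the most alike pair at 4.26. Sept2C111A library 4 stood nearer to the WT libraries, at 30.25 to 41.8, than to library 3. Sept2C111A library 1 stood at 16.8 to 25.3 from the WT libraries and at 37.0 from Sept2C111A library 3. Libraries 1 and 4 of Sept2C111A were nearest to each other, at 16.1.

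The defining genes of mature smooth muscle were near the floor. Myh11, the smooth muscle myosin heavy chain, had 23 reads in all 4 Sept2C111A libraries together, against 44 in the 4 WT libraries, and was too low to be tested. Myocd, the coactivator of SRF that is restricted to cardiac and smooth muscle, was at 0 in 2 libraries and had at most 5 reads in any library. Pln, the phospholamban of the sarcoplasmic reticulum, was at 0 in 6 libraries, and the pericyte markers Rgs5, Kcnj8 and Higd1b were at 0 in 3, 6 and 7 libraries. Acta2 by contrast had 503 CPM or more in every library. The 9 genes are therefore called smooth muscle contractile genes by their rule and not as evidence of smooth muscle cells.

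Acta2 and Tagln, the thin filament actin and its cross-linker, gave the largest absolute differences. Acta2, which encodes alpha smooth muscle actin, had 767, 503, 668 and 699 CPM in Sept2C111A libraries 1 to 4, against 1069, 854, 1137 and 1002 CPM in WT libraries 1 to 4. Every Sept2C111A library lay below every WT library, and the means were 659 ± 112 CPM in Sept2C111A and 1016 ± 121 CPM in WT libraries (SD, n = 4 each), a log2 fold change of -0.62 (SE 0.127). Tagln, which encodes the actin-binding protein transgelin (SM22), had 253, 161, 215 and 218 CPM in Sept2C111A libraries, against 331, 272, 369 and 317 CPM in WT libraries. Again the groups did not overlap, and the log2 fold change was -0.61 (SE 0.129). In both genes Sept2C111A library 2 was the lowest of its genotype and WT library 3 the highest of its own. Acta2 spans chr19:34240336-34255585 and Tagln chr9:45929628-45936058 in the GRCm38 (mm10) annotation. Tagln shares 108 exon bases with Pcsk7 on the opposite strand, which averaged 38.8 CPM, and 1241 exon bases with the antisense gene Gm48529, which was not analysed here. The strandedness of the libraries is not given in the sources used here, so reads in these overlaps cannot be told apart.

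**Figure D1:**
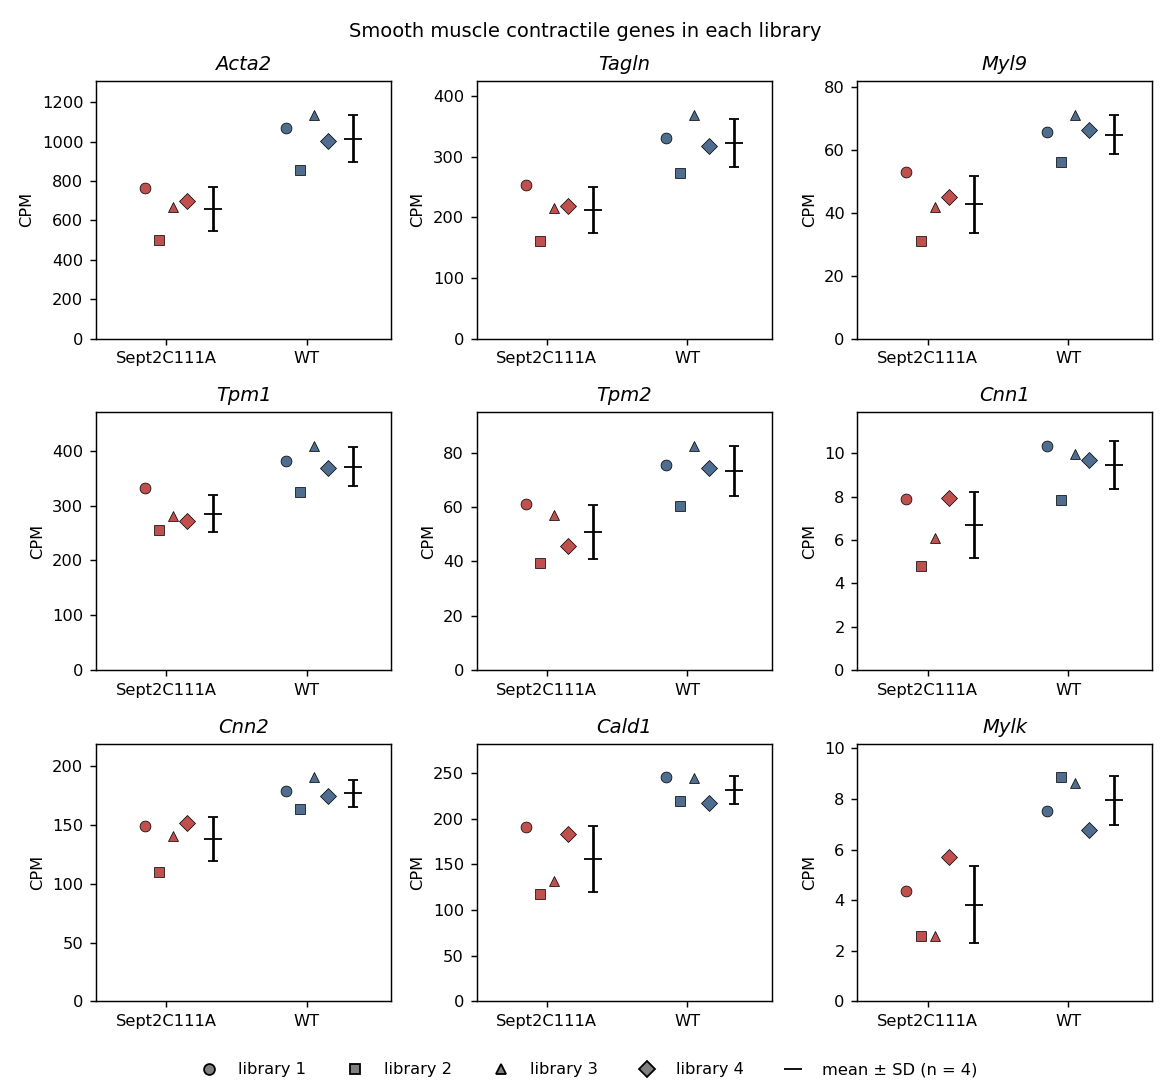
CPM of the 9 contractile genes, a panel each, for Sept2C111A (left) and WT (right) libraries. Symbols mark libraries 1 to 4 and the bar gives the mean ± SD. Acta2 lies at 503 to 767 CPM in Sept2C111A and at 854 to 1137 CPM in WT libraries, while Tpm1, Tpm2 and Cnn1 overlap between the genotypes.

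The myosin switch is represented by Myl9, the regulatory light chain of smooth muscle and non-muscle myosin, and by Mylk, its kinase. Myl9 had 52.9, 31.0, 42.0 and 45.0 CPM in Sept2C111A libraries, against 65.8, 56.1, 71.2 and 66.4 CPM in WT libraries. The groups did not overlap, with means of 42.7 ± 9.06 CPM in Sept2C111A and 64.9 ± 6.33 CPM in WT libraries (SD, n = 4 each) and a log2 fold change of -0.60 (SE 0.138). Mylk had 4.35, 2.60, 2.59 and 5.72 CPM in Sept2C111A libraries, against 7.54, 8.86, 8.63 and 6.78 CPM in WT libraries. It showed the largest fold difference of the 9 genes, a log2 fold change of -1.05 (SE 0.229), and in Sept2C111A libraries also the widest relative spread, with a coefficient of variation of 39.7%. In WT libraries its coefficient of 12.2% was close to those of Tagln and Tpm2. Mylk departed from the other genes in which libraries were high: WT library 2, the lowest WT library for 7 of the 9 genes, was the highest for Mylk. Its counts were also small, 313 reads over the Sept2C111A libraries and 673 over the WT libraries. Myl9 lies at chr2:156775408-156781657 and Mylk at chr16:34745199-35002436. Mylk shares 548 exon bases with the antisense gene E130310I04Rik and 224 with Gm21691, which were not analysed here.

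The tropomyosins stabilise actin filaments and set which other proteins bind them. Tpm1 (chr9:67022590-67049672) had 333, 255, 281 and 273 CPM in Sept2C111A libraries, against 383, 325, 409 and 368 CPM in WT libraries. Sept2C111A library 1 lay above WT library 2, so the groups overlapped, and the log2 fold change was -0.38 (SE 0.0948). Tpm2 (chr4:43513726-43523583) had 61.0, 39.4, 57.1 and 45.5 CPM in Sept2C111A libraries, against 75.6, 60.4, 82.5 and 74.6 CPM in WT libraries. The same pair of libraries overlapped, and the log2 fold change was -0.53 (SE 0.137). Both genes make muscle and non-muscle isoforms through alternative exons, and the annotation lists 16 coding transcripts of Tpm1 and 4 of Tpm2, which a count per gene does not separate.

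Calponins and caldesmon bind actin and restrain its interaction with myosin. Cnn1 (chr9:22099221-22109221), basic calponin and the most smooth muscle-restricted of the calponins, had 7.90, 4.82, 6.10 and 7.94 CPM in Sept2C111A libraries, against 10.35, 7.84, 9.997 and 9.69 CPM in WT libraries. Here 2 Sept2C111A libraries lay above WT library 2, and the log2 fold change was -0.50 (SE 0.159). Cnn2 (chr10:79988600-79995400), a calponin also made by macrophages and other non-muscle cells, had 149, 110, 141 and 152 CPM in Sept2C111A libraries, against 179, 163, 191 and 175 CPM in WT libraries. The groups did not overlap, and the log2 fold change of -0.36 (SE 0.0974) was the smallest of the 9. Cald1 (chr6:34598495-34775469), caldesmon, had 191, 118, 132 and 183 CPM in Sept2C111A libraries, against 246, 220, 244 and 218 CPM in WT libraries. Its Sept2C111A libraries fell into a lower pair, 2 and 3, and a higher pair, 1 and 4, and all of them lay below the WT libraries. The log2 fold change of Cald1 was -0.57 (SE 0.141), and -0.31 without Sept2C111A libraries 2 and 3. Leaving out the lower pair must narrow the difference, so nothing is read from the second value.

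Across the set, all 9 log2 fold changes were below 0, with a median of -0.57 where the median over all 12462 tested genes was 0.01. By the edgeR test over all genes, 7 of the 9 were called lower, where 3.03% of all tested genes were called lower, 3.43% higher and 6.46% in either direction. Cnn1 and Cnn2 were not called. The Sept2C111A libraries lay below all WT libraries for 6 of the 9, where this held for 8.47% of all tested genes. Because this contrast was used to choose the genes, nothing is read from these counts. The count of 7 was 3 without Sept2C111A library 2, 5 without Sept2C111A library 3, 0 without WT library 1 or without WT library 3, 5 without WT library 2 and 2 without WT library 4, while the 9 fold changes stayed below 0 in each of these fits and in each other alternative tried. Between libraries of a genotype, Sept2C111A library 2 was the lowest for 8 of the 9 genes and library 1 the highest for 6. WT library 2 was the lowest for 7 and WT library 3 the highest for 6. The coefficient of variation was larger in Sept2C111A than in WT libraries for each of the 9 genes.

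**Figure D2:**
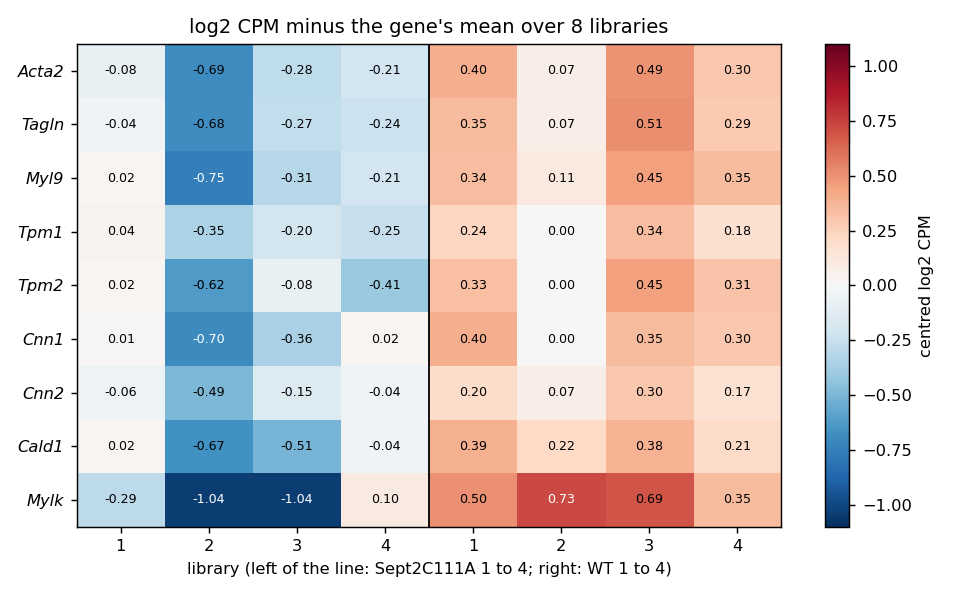
Each cell gives a gene's log2 CPM minus that gene's mean over the 8 libraries, with Sept2C111A libraries 1 to 4 left of the line and WT libraries 1 to 4 right of it. Blue is below and red above the gene's mean. Sept2C111A library 2 is the bluest of its genotype for 8 of the 9 genes, and Mylk has the widest range.

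Sequences around the start of transcription were read because SRF binds a short element, the CArG box, that is known from the control regions of many contractile genes. The CArG box was searched on both strands as CC, a core of A and T bases, and GG, in windows of 250 bases before to 50 after an annotated gene start, from RefSeq on GRCm38.p6. Windows were in the table for 8 of the 9 genes, with a pair of windows for Cald1, and the entry missing was Tagln. The start used for a window need not be the outer end of the gene span given above. The start used for Acta2 lies inside the Acta2 span, and the whole Mylk window, chr16:34784700-34784999, lies inside the Mylk span. An exact CArG box was found in Myl9 and Cnn2, 2 of the 9 windows of these genes, where 1.63% of all 32851 windows held one. Allowing up to 1 mismatch in the core added Acta2, 3 of 9 windows, where 9.98% of all windows held such a match. The 3 windows are shown 5′ to 3′, with the CArG boxes found in capitals, because they carry the matches: Acta2 at chr19:34255324-34255623 on the minus strand, Myl9 at chr2:156775214-156775513 on the plus strand and Cnn2 at chr10:79988350-79988649 on the plus strand.
Acta2: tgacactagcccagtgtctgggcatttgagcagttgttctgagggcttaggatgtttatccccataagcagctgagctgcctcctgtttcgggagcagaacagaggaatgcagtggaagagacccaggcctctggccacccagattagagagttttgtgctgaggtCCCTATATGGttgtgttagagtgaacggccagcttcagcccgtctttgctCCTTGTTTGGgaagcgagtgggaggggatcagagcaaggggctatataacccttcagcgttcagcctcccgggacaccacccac
Myl9: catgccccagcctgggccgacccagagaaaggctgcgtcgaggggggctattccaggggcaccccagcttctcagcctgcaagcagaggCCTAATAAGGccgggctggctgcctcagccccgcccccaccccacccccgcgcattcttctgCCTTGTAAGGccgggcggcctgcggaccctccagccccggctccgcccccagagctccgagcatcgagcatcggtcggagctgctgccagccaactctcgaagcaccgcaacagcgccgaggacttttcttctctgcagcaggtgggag
Cnn2: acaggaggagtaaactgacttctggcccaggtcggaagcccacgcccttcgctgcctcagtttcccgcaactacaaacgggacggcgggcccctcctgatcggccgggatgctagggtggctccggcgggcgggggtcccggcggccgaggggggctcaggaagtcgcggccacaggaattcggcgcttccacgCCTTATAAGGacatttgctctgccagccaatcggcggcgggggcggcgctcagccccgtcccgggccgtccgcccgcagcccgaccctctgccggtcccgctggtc
In Acta2 the matches began 84 and 34 bases before the start used for its window, both with 1 mismatch. In Myl9 an exact CArG box began 161 bases before the start and a match with 1 mismatch 99 bases before it, and in Cnn2 an exact box began 56 bases before the start. The motif CATTCC was searched on both strands as the core element bound by TEAD factors. It was found in 4 of 9 windows, those of Acta2, Tpm1 and Mylk and 1 window of Cald1, where 14.7% of all windows held it. TATAAA, also searched on both strands, was found in the other Cald1 window alone, 1 of 9 windows, where 13.6% of all windows held it. In the member windows no matches of different motifs overlapped. The genes with an exact CArG box had log2 fold changes of -0.60 for Myl9 and -0.36 for Cnn2, and those with no match in these windows ran from -0.38 for Tpm1 to -1.05 for Mylk.

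Per length of transcript, the levels spanned a wide range. On the scale of CPM per kilobase of the median coding transcript, Acta2 averaged 461 in Sept2C111A libraries and 710 in WT libraries, Tagln 216 in Sept2C111A and 328 in WT, and Tpm1 174 in Sept2C111A and 226 in WT. Cald1 followed with 97.4 in Sept2C111A and 145 in WT libraries, then Cnn2 with 81.5 and 104.5, Myl9 with 37.9 and 57.5, and Tpm2 with 31.1 and 44.9. Cnn1, at 6.40 in Sept2C111A and 9.05 in WT libraries, and Mylk, at 0.808 and 1.68, were the lowest. Neighbours in this order overlapped between libraries for Myl9 and Tpm2 in both genotypes, and in Sept2C111A libraries also for Tagln and Tpm1 and for Cald1 and Cnn2. The order depends on the length used: with the longest coding transcript, Cald1 averaged 48.5 in WT libraries, below Cnn2 at 71.9 and Myl9 at 57.5.

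On this scale, Acta2, Tagln and Myl9 were minor members of their protein families, while Cnn2 and Mylk were the leading members of theirs. Acta2 was 4.48% of the summed level of 6 actin genes in Sept2C111A libraries (range 3.495% to 5.44%) and 5.92% in WT libraries (5.28% to 6.67%), and Actb, beta-actin, was 63.4% and 61.4%. The ranges of the Acta2 share overlapped, since Sept2C111A library 4 lay above WT library 2. Actin genes are nearly identical in their coding sequence, so how the reads were split among them is uncertain. Tagln was 18.1% of the transgelins in Sept2C111A libraries (14.4% to 20.8%) and 23.4% in WT libraries (22.1% to 25.9%), most of the rest being Tagln2. Myl9 was 5.53% of the regulatory light chains in Sept2C111A libraries (4.11% to 6.88%) and 8.27% in WT libraries (7.58% to 8.81%), or 11.5% and 16.7% with the longest coding transcripts. Tagln and Myl9 thus held a lower share of their family in every Sept2C111A library than in any WT library. Cnn2 was 58.4% of the calponins in Sept2C111A libraries (56.0% to 61.7%) and 56.2% in WT libraries (55.0% to 57.3%), and Cnn1 was 4.53% and 4.86%. Mylk was 94.4% of the light chain kinases in Sept2C111A libraries and 95.3% in WT libraries, its relatives Mylk2, Mylk3 and Mylk4 having at most 5 reads in any library. These shares of Cnn1, Cnn2 and Mylk overlapped between the genotypes.

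Among the tropomyosins, Tpm1 was 14.5% of the family in Sept2C111A libraries (13.5% to 16.1%) and 16.4% in WT libraries (15.2% to 17.6%), which overlapped. The largest part came from Tpm3 and Tpm4, both of which make non-muscle tropomyosins. Tpm4 was called lower, at 753, 623, 674 and 643 CPM in Sept2C111A libraries, against 976, 914, 947 and 891 CPM in WT libraries. Its log2 fold change was -0.47 (SE 0.0731, edgeR adjusted p = 0.00462), lower in 4 of 4 Sept2C111A libraries, and the call was kept in all 14 alternatives, with adjusted p between 2e-08 and 0.0278. Tpm3 averaged 767 ± 59.6 CPM in Sept2C111A libraries and 758 ± 19.3 CPM in WT libraries, a log2 fold change of 0.02. The ratio of Tpm4 to Tpm3 CPM, chosen after the values were seen, was 0.882 ± 0.0919 in Sept2C111A libraries and 1.23 ± 0.0548 in WT libraries (SD, n = 4 each), without overlap. It is given as a description. A permutation test was also run on the ratio but is not used, since the ratio was picked from the same values. Tpm3 held 56.4% of the family in Sept2C111A libraries and 48.4% in WT libraries, and Tpm4 held 26.5% and 31.9%. With the longest coding transcripts, Tpm3 held 43.96% in Sept2C111A and 36.1% in WT libraries and Tpm4 40.5% and 46.6%, so that Tpm4 stood above Tpm3 in WT libraries, while the Tpm3 share was the higher and the Tpm4 share the lower in Sept2C111A libraries with either length.

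**Figure D3:**
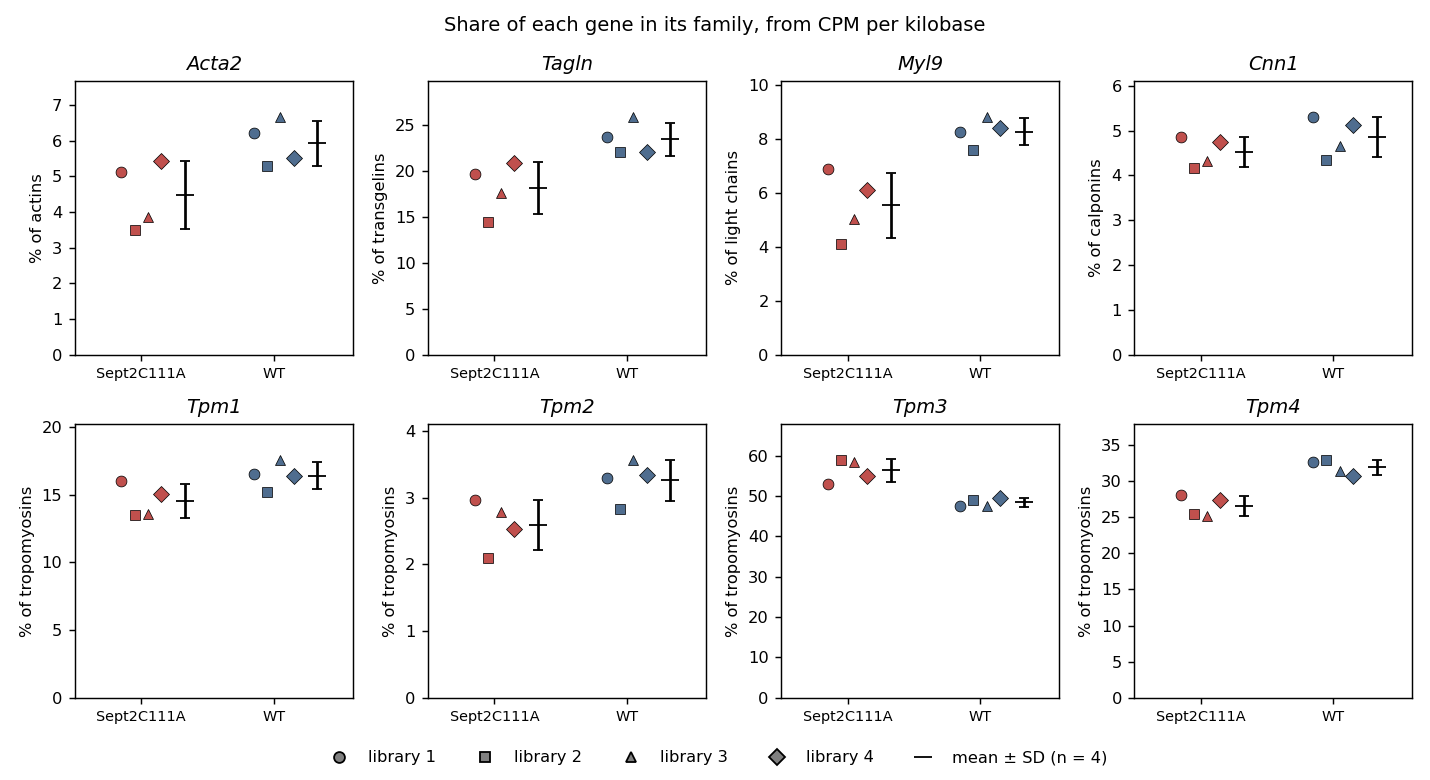
Share of each gene in the summed level of its protein family, in CPM per kilobase of the median coding transcript, for Sept2C111A (left) and WT (right) libraries. Points are libraries and bars are the mean ± SD. The Myl9 share is 4.11% to 6.88% in Sept2C111A and 7.58% to 8.81% in WT libraries.

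Of 20 relatives of the 9 genes, from the non-muscle, striated and smooth muscle members of the same families, 13 passed the filter. Of these, 0 were called higher and 2 lower, where 3.43% of all tested genes were called higher and 3.03% lower. Their median log2 fold change was -0.15. Beside Tpm4 the other called relative was Actg2, the gamma smooth muscle actin of visceral muscle, at 9.40 ± 2.67 CPM in Sept2C111A libraries and 15.8 ± 2.00 CPM in WT libraries. Its log2 fold change was -0.74 (SE 0.178, edgeR adjusted p = 0.0339), lower in 4 of 4 Sept2C111A libraries, and the call was lost without Sept2C111A library 2, without library 3, without both, or without WT library 1, 3 or 4. Actb averaged 6157 ± 1070 CPM in Sept2C111A libraries and 6843 ± 438 CPM in WT libraries and was not called. Cnn3, the acidic calponin, was not called either, at 43.6 ± 8.91 CPM in Sept2C111A libraries and 60.6 ± 5.78 CPM in WT libraries. Actb and Cnn3 were named after their values were seen.

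Other genes of differentiated smooth muscle were scarce. Of 18, 12 passed the filter, and the median log2 fold change was -0.62. Among the 12, 0 were called higher and 2 lower, beside 3.43% and 3.03% of all tested genes. Lmod1, leiomodin 1, which nucleates actin filaments in smooth muscle, had 3.26, 2.44, 3.41 and 3.78 CPM in Sept2C111A libraries, against 6.11, 4.62, 6.79 and 4.77 CPM in WT libraries. These groups did not overlap, and the log2 fold change was -0.79 (SE 0.174, edgeR adjusted p = 0.0258). Npnt, the matrix protein nephronectin, averaged 2.22 ± 0.877 CPM in Sept2C111A libraries and 4.39 ± 0.460 CPM in WT libraries, a log2 fold change of -0.97 (SE 0.243, edgeR adjusted p = 0.0393). Both were below every WT library in 4 of 4 Sept2C111A libraries. With libraries left out, the Lmod1 call was lost without Sept2C111A library 2, without libraries 2 and 3, or without WT library 1 or 3, and the Npnt call without Sept2C111A library 2, without library 3, without both, or without any single WT library. The summed level of the 18 genes was 32.4 to 48.6 CPM in Sept2C111A libraries, against 48.7 to 60.3 CPM in WT libraries.

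Genes of the upstream machinery are given beside the shares of all tested genes, 3.03% called lower and 3.43% higher. Of 21 genes that set the activity of the myosin switch, among them calmodulins and subunits of myosin phosphatase, all were tested, 0 were called higher and 1 lower, with a median log2 fold change of -0.09. That gene was Rhob, an endosomal small GTPase, at 128 ± 10.03 CPM in Sept2C111A libraries and 163 ± 7.26 CPM in WT libraries, a log2 fold change of -0.34 (SE 0.0693, edgeR adjusted p = 0.0178), lower in 4 of 4 Sept2C111A libraries. The call was lost without Sept2C111A library 2 or without WT library 1 or 3. Of 15 genes that encode SRF, its cofactors and TEAD factors with their coactivators, 13 were tested and edgeR called 0. DESeq2 called 3 lower and limma voom called 0. With 1 library left out, edgeR called 1 lower without Sept2C111A library 1, 3 lower without Sept2C111A library 4, and 0 otherwise. By edgeR, 5 of the 13 had an unadjusted p under 0.05, where 3092 of all 12462 tested genes had one. Mrtfa, the most abundant of the 13, is a cofactor released when actin polymerises. It averaged 76.7 ± 5.53 CPM in Sept2C111A libraries and 75.3 ± 3.15 CPM in WT libraries, a log2 fold change of 0.03 (edgeR adjusted p = 0.844). The median log2 fold change of the 13 was -0.12, and 8 of them were below 0. The Sept2C111A libraries lay below all WT libraries for 4 of the 13, where this held for 8.47% of all tested genes. These were Tead1, a log2 fold change of -0.55, Tead2, of -0.44, Yap1, of -0.41, and Srf, of -0.09, named after their values were seen.

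Several other targets of SRF and MRTF fell. All 16 were tested, and all 16 log2 fold changes were below 0 with a median of -0.32. Of the 16, 0 were called higher and 5 lower, beside 3.43% and 3.03% of all tested genes. Lpp, a focal adhesion protein, averaged 26.9 ± 2.41 CPM in Sept2C111A libraries and 33.4 ± 0.547 CPM in WT libraries, a log2 fold change of -0.31 (edgeR adjusted p = 0.032). Actn1, an alpha-actinin that cross-links actin, averaged 204 ± 32.6 CPM in Sept2C111A libraries and 273 ± 15.4 CPM in WT libraries, a log2 fold change of -0.42 (edgeR adjusted p = 0.0369). Fhl2, a LIM-domain cofactor, averaged 6.46 ± 1.46 CPM in Sept2C111A libraries and 10.2 ± 1.53 CPM in WT libraries, a log2 fold change of -0.65 (edgeR adjusted p = 0.0399). Each of the 3 genes was lower in 4 of 4 Sept2C111A libraries. The other called genes were Fhl1, a log2 fold change of -0.91, and Flna, the actin cross-linker filamin A, of -0.38, named after their values were seen. With libraries left out, the count of 5 was 0 without Sept2C111A library 2, without Sept2C111A libraries 2 and 3, or without WT library 1, 3 or 4, was 2 without Sept2C111A library 3, 1 without WT library 2 and 9 without Sept2C111A library 4.

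In the TGF-β pathway, which promotes the myofibroblast state, all 25 listed genes were tested, with a median log2 fold change of -0.15. Of the 25, 1 was called higher and 3 lower, where 3.43% of all tested genes were called higher and 3.03% lower. Tgfb3, a ligand, had 13.8, 8.96, 10.99 and 14.9 CPM in Sept2C111A libraries, against 20.1, 16.6, 22.6 and 20.4 CPM in WT libraries. These did not overlap, and the log2 fold change was -0.71 (SE 0.151, edgeR adjusted p = 0.0214). Ltbp1, which binds latent TGF-β in the matrix, averaged 19.3 ± 2.54 CPM in Sept2C111A libraries and 25.6 ± 2.38 CPM in WT libraries, a log2 fold change of -0.41 (edgeR adjusted p = 0.0409). The other lower gene was the ligand Tgfb2, a log2 fold change of -0.42, named after its value was seen. Tgif1, a repressor of SMAD-driven transcription, was the gene called higher, at 137 ± 14.5 CPM in Sept2C111A libraries and 106 ± 5.30 CPM in WT libraries, a log2 fold change of 0.36 (SE 0.0802, edgeR adjusted p = 0.0252), higher in 4 of 4 libraries. Tgfb1, the ligand that macrophages make in quantity, averaged 627 ± 48.2 CPM in Sept2C111A libraries and 594 ± 7.503 CPM in WT libraries and was not called. The count of 3 lower genes was 1 without Sept2C111A library 2, without library 3 or without both, 0 without WT library 1, 3 or 4, and 7 without Sept2C111A library 4. With libraries left out, the Tgif1 call was lost without Sept2C111A library 2, without libraries 2 and 3, or without any single WT library.

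**Figure D4:**
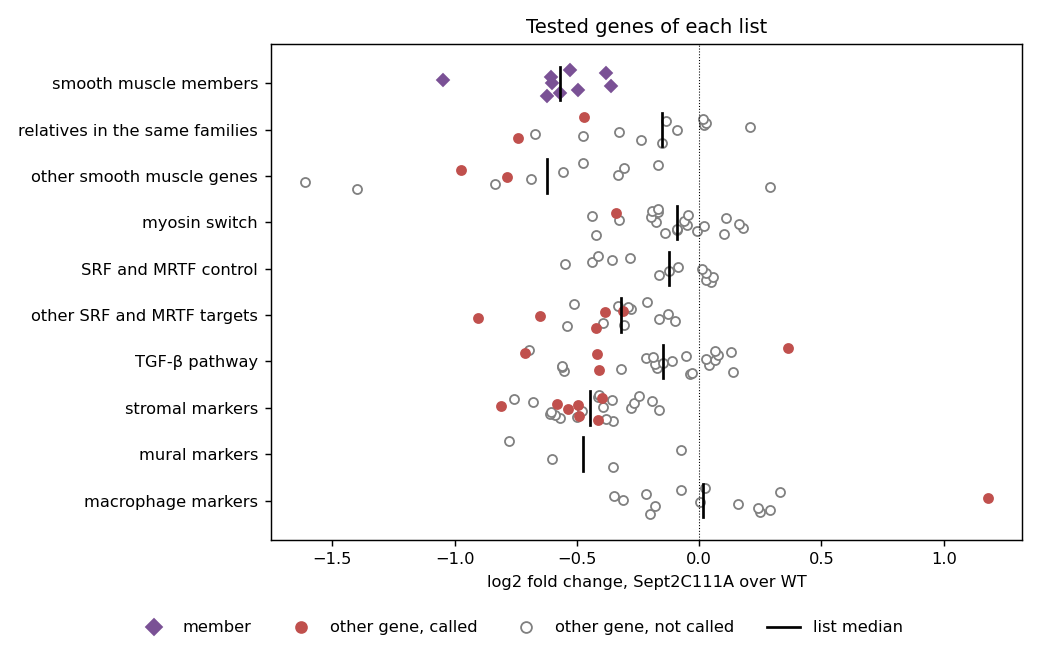
Log2 fold change of Sept2C111A over WT for each tested gene, arranged by gene list. Diamonds are the 9 contractile genes, drawn without a mark for the threshold, and among the other genes filled points passed the edgeR threshold and open points did not. The bar is the list's median, which is -0.57 for the 9 contractile genes, -0.62 for other smooth muscle genes, -0.45 for stromal markers and 0.01 for macrophage markers.

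Some stromal markers fell. Of 29, 26 were tested, and all 26 log2 fold changes were below 0 with a median of -0.45. Among the 26, 0 were called higher and 7 lower, beside 3.43% and 3.03% of all tested genes. Loxl1, which cross-links elastin, had 30.8, 21.6, 25.3 and 29.3 CPM in Sept2C111A libraries, against 42.2, 36.3, 44.3 and 37.6 CPM in WT libraries. The groups did not overlap, and the log2 fold change was -0.58 (SE 0.112, edgeR adjusted p = 0.0134). Postn, the matrix protein periostin, averaged 198 ± 21.4 CPM in Sept2C111A libraries and 260.2 ± 12.6 CPM in WT libraries, a log2 fold change of -0.40 (edgeR adjusted p = 0.018). Fstl1, a secreted glycoprotein, averaged 101 ± 19.2 CPM in Sept2C111A libraries and 143 ± 11.1 CPM in WT libraries, a log2 fold change of -0.50 (edgeR adjusted p = 0.036). All 3 were lower in 4 of 4 Sept2C111A libraries, and the others called were Col1a1, Col5a2, Fbn1 and Ddr2. The count of 7 was 0 without WT library 1 or 3, 1 without Sept2C111A library 2 or WT library 4, 2 without Sept2C111A library 3 or without Sept2C111A libraries 2 and 3, 4 without WT library 2, 12 without Sept2C111A library 1 and 17 without Sept2C111A library 4, and 15 with DESeq2.

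Set against the summed stromal markers, most of the contractile genes came closer together between the genotypes. The collagen genes Col1a1 and Col1a2 made up most of this sum. They averaged 1545 and 1536 CPM of 5359 CPM in Sept2C111A libraries, and 2056 and 2002 CPM of 7076 CPM in WT libraries. The ratio is therefore weighted towards these collagen genes and does not count stromal cells. Col1a2 was named after its values were seen. Acta2 had 126, 103, 145 and 120 CPM per 1000 CPM of stromal markers in Sept2C111A libraries, against 145, 141, 148 and 140 in WT libraries. Sept2C111A library 3 lay within the WT range on this scale and the other Sept2C111A libraries below it. The same ratio averaged 53.6 ± 5.89 in Sept2C111A and 52.5 ± 1.16 in WT libraries for Tpm1, and 25.9 ± 3.34 and 25.1 ± 1.27 for Cnn2, so these averages were not lower in Sept2C111A libraries. Mylk kept the largest relative difference, at 0.714, 0.532, 0.562 and 0.980 in Sept2C111A libraries, against 1.02, 1.46, 1.13 and 0.945 in WT libraries, with Sept2C111A library 4 above WT library 4. Tagln averaged 39.6 ± 5.75 in Sept2C111A and 45.5 ± 1.77 in WT libraries, Myl9 7.96 ± 1.22 and 9.17 ± 0.185, and Cald1 28.9 ± 3.40 and 32.9 ± 2.50. For Tpm2 the averages were 9.56 ± 2.11 in Sept2C111A and 10.3 ± 0.333 in WT libraries, and for Cnn1 1.24 ± 0.171 and 1.34 ± 0.0488. Among the WT libraries the summed 9 genes stood at 320, 325, 329 and 312 per 1000 CPM of stromal markers, while the Sept2C111A libraries ran at 299, 251, 335 and 279. The part of the stromal level in the difference of the contractile genes was not tested.

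**Figure D5:**
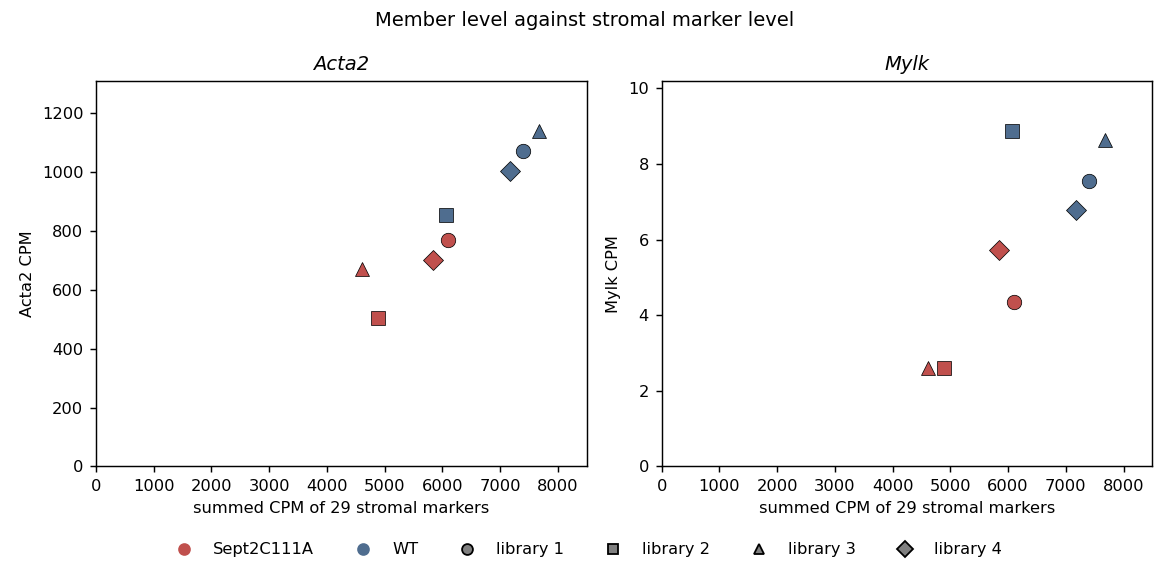
CPM of Acta2 (left panel) and Mylk (right panel) against the summed CPM of the 29 stromal markers, a point per library, with colour for genotype and symbol for library number. Sept2C111A libraries lie at 4617 to 6095 CPM of stromal markers with 503 to 767 CPM of Acta2, and WT libraries at 6064 to 7670 CPM with 854 to 1137 CPM.

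Markers of other cells that could carry contractile genes were read in the same libraries. The 8 mural markers summed to 11.2 to 19.0 CPM in Sept2C111A libraries, against 16.1 to 21.2 CPM in WT libraries. All 4 tested had log2 fold changes below 0, with a median of -0.48. By edgeR, DESeq2 and limma voom 0 of these 4 were called, and with 1 library left out up to 2 were called lower. Notch3, at -0.78, and Mcam, at -0.60, had an unadjusted edgeR p under 0.05, where 3092 of all 12462 tested genes had one. Both were named after their values were seen. Ndufa4l2, the most abundant of the mural markers, averaged 8.09 ± 1.54 CPM in Sept2C111A libraries and 8.52 ± 1.82 CPM in WT libraries, a log2 fold change of -0.075. Endothelial markers summed to 4.11 to 5.20 CPM in Sept2C111A and 3.96 to 4.39 CPM in WT libraries, and striated muscle markers to 4.45 to 6.66 CPM and 3.68 to 5.20 CPM. Bone and fat markers summed to 41.4 to 58.0 CPM in Sept2C111A and 36.2 to 49.7 CPM in WT libraries. The most abundant gene was Vwf among the endothelial markers, Tnni2 among the striated muscle markers and Alpl among the bone and fat markers, and none of these 3 was called. Of the 14 macrophage markers, 1 was called, where 6.46% of all tested genes were called in either direction. That gene was Fcgr1, the high-affinity IgG receptor, which was higher in 4 of 4 Sept2C111A libraries. It averaged 193 ± 39.95 CPM in Sept2C111A libraries and 84.9 ± 11.3 CPM in WT libraries, a log2 fold change of 1.18 (SE 0.143, edgeR adjusted p = 0.00109). The part of these other cell types in the contractile gene values was not tested.

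The genes whose profiles over the 8 libraries were most like those of the members were sought among the 8308 genes that averaged 10 CPM or more. Likeness was the root mean square difference of log2 CPM, centred on each gene's mean, so a smaller value is a closer profile. Acta2 was nearest to Tagln, at 0.0267, then to Myl9, at 0.0534, and to Loxl1. Tagln and Myl9 were also each other's near neighbours, at 0.0486, with Tubb2a, a beta-tubulin, next for Tagln and Efnb1, an ephrin ligand, next for Myl9. These 3 genes of actin, transgelin and light chain thus followed each other across libraries of both genotypes more closely than they followed the tropomyosins or calponins. Tpm1 was nearest to Ckap4, Chpf and Fkbp10, and Tpm2 to Tuba1c, Pf4 and Cavin1. Cnn2 was nearest to Cryab, Tuba1a and Serpinh1. Fstl1 and Parva were among the 3 genes nearest to Cnn1, and Prag1 and Jag1 among the 3 nearest to Cald1. Mylk had no close neighbour: its nearest genes were Fbn1, Col12a1 and Pxdn at 0.177 to 0.190, and it lay at 0.327 to 0.506 from the other 8 members. Of the 27 neighbours 6 were members and 3 were stromal markers. All profiles share the same 8 libraries and the same genotype difference, so likeness describes these libraries.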

How the data were processed

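Poly(A)-selected RNA of 8 BMDM cultures was sequenced. The authors deposited expected counts per gene symbol, 17364 in each library, per the labels and the values. Per the submitters' processing notes, the build was mm10 and the tools included RSEM 1.3.1, Bowtie2 and DESeq2 1.4.5. Their roles, the annotation and the strandedness are not stated in the labels. An expected count shares out reads that match several genes, so near-identical paralogs are uncertain.

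Expected counts were rounded. Genes with low counts were removed (filterByExpr, minimum count 10), which left 12462. TMM-normalised counts were compared between genotypes with the two-sided quasi-likelihood test of edgeR 4.0.16 in R 4.3.3, genotype being the single term. P-values were adjusted by Benjamini-Hochberg over all tested genes, and 0.05 was the threshold. Dividing the log2 fold change by the root of its F statistic gave the SE. Scripts were tested on simulated data. CPM use normalised library totals. Levels below 3 counts are under the floor, which covers counting error only. Over genes with at least 200 reads in a pair of libraries, no pair agreed within sampling noise (mean chi-square per gene at least 4.26).

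The members and all lists were chosen with earlier results of these data known. All members and Septin2 are named, from each other list up to 3 called genes with the smallest adjusted p or, with none called, the most abundant, and the 3 nearest profiles per member, of which 2 are not reported here. Of 207 list entries 205 were found, and Myh2 and Myh4 were not analysed here. Gene coordinates and promoters came from RefSeq (GRCm38), and transcript lengths and exon overlaps from GENCODE M21 (GRCm38). Alternatives were RLE size factors, no filter, a replicate block, DESeq2 1.42.0, voom in limma 3.58.1, each library left out, Sept2C111A libraries 2 and 3 left out together, and the longest transcript as length. The Tpm4 to Tpm3 ratio was chosen after seeing the data.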

Additional observations from a re-analysis of the deposited data

Results flagged for a closer look

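Of 102 groups of 4 libraries checked for a library far from the other 3, 4 were marked, and chance marks about 1 in 20 groups. The summed CPM of the SRF and MRTF targets was 2650 in WT library 3, where the other WT libraries lay between 2475 and 2495. Mrtfa had 79.9 CPM in WT library 4, where the other WT libraries lay between 73.2 and 73.9. Myl9 per 1000 CPM of stromal markers was 8.90 in WT library 1, where the other WT libraries lay between 9.25 and 9.28. The summed striated muscle markers reached 6.66 CPM in Sept2C111A library 3, where the other Sept2C111A libraries lay between 4.45 and 4.68.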

How the results depend on the processing

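Over all genes, 805 were called, against 1428 with DESeq2, 492 without Sept2C111A libraries 2 and 3, and 266 to 2077 with 1 library left out. For the contractile genes the count of 7 called lower ran from 0 to 9 with 1 library left out, and was 5 without Sept2C111A libraries 2 and 3, 7 to 9 in the other alternatives, and their median log2 fold change ran from -0.68 to -0.41. The 14 calls in the 6 related lists became 23 with DESeq2, 3 without Sept2C111A libraries 2 and 3, and 1 to 35 with 1 library left out. The cause was not tested. Sept2C111A libraries 2 and 3 were the lowest for Cald1 and for the summed stromal markers. Leaving them out together therefore had to narrow those differences.

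Same-numbered libraries did not deviate together: the correlations of their deviations ran from -0.237 to 0.137. With the replicate number as a block, 494 genes were called, 7 of the contractile genes, 9 genes of the related lists, 2 of the SRF and MRTF targets and 4 stromal markers, and Npnt, Lpp, Actn1, Ltbp1 and Tgif1 were not called.

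With the longest coding transcript as length, WT levels in CPM per kilobase were 499 for Acta2, 202.1 for Tagln, 128.5 for Tpm1, 33.7 for Tpm2, 3.98 for Cnn1, 71.9 for Cnn2, 48.5 for Cald1 and 1.02 for Mylk.

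Ndufa4l2, Tnni2 and Alpl, which were not called, changed sign. With 1 library left out, the log2 fold change of Ndufa4l2 ran from -0.20 to 0.02, that of Tnni2 from -0.08 to 0.30 and that of Alpl from -0.21 to 0.03. Leaving out Sept2C111A libraries 2 and 3 together gave -0.19 for Tnni2 and 0.16 for Alpl. Mylk and Cnn1 rest on at most 190 and 217 reads per library, which limits their precision.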
